A study of Mus musculus with 24 samples.

Results

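Lysosome and autophagy genes were followed in kidneys of mice that lacked Lrp2 in proximal tubule cells. The set held 36 genes, picked by symbol and not by a threshold on these data, out of 54532 gene identifiers in the count files. The genes were chosen with earlier results of these data known. It was built to set 3 cathepsins that are typical of macrophages, Ctss, Ctsc and Ctsk, against 33 general lysosome and autophagy genes. All 36 passed the filter on low counts, which left 17286 genes for testing.

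Lysosomes are acidic organelles in which proteases, glycosidases and lipases break down material delivered by endocytosis and autophagy, the enclosure of cytoplasm in membranes that then fuse with lysosomes. Proximal tubule cells are rich in lysosomes because they take up filtered protein through megalin, the endocytic receptor encoded by Lrp2, and degrade it there. Macrophages also hold many lysosomes and make cathepsins that serve antigen processing, activation of granule proteases and breakdown of matrix. These cathepsins are not confined to macrophages. Other immune cells, osteoclasts and fibroblasts make some of them too.

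RNA of 24 kidney samples was sequenced in bulk, with 6 libraries from each of 4 groups: wild type and knockout littermates after 2 weeks of Western diet, and wild type and knockout after 12 weeks. All 4 groups received the diet, so no group shows the genes without it. The labels name the mice PTC LRP2-SM22 +/+ and -/-. The series record calls the deletion specific to proximal tubule cells, while the sources used here do not give the driver of the deletion, the meaning of SM22, the diet's composition, or the age and sex of the mice. The labels do not say whether libraries of a group stem from different mice. If they do not, the p-values cover technical spread between samples only.

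Libraries held 15603580 to 34055860 counts in wild type and 16312621 to 25184468 in knockout at 2 weeks, and 11351799 to 14534214 and 11327983 to 15236159 at 12 weeks. Levels are given as CPM, the usual counts-per-million scale, with library sizes adjusted by TMM (trimmed mean of M values). Lrp2 itself lay between 1590 and 2290 CPM in wild type and between 192 and 584 CPM in knockout at 2 weeks, and between 1410 and 2500 against 186 and 390 CPM at 12 weeks, with no overlap of the genotypes at either time. The kidney markers Kap and Slc34a1 (proximal tubule) and Umod (thick ascending limb) averaged 20900, 3930 and 2650 CPM over the 24 libraries.

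The genotype comparison asked how lysosome and autophagy genes differ between knockout and wild type kidneys at each duration. At 2 weeks 9 of the 36 genes rose in knockout and 4 fell, which was 13 genes called at an adjusted p under 0.05, against 31.6% of all tested genes (18.2% higher, 13.4% lower). At 12 weeks 7 rose and 11 fell, against 38.5% of all tested genes (20.7% higher, 17.7% lower). The same shares are the background for the genotype counts of each gene list below. Of all tested genes, 10.3% were higher and 6.32% lower at 2 weeks with no overlap of the 6 knockout and 6 wild type libraries. Of the 36, 5 were higher and 3 lower without overlap at that time. At 12 weeks 6 were higher and 6 lower without overlap, against 10.1% and 8.3% of all tested genes. The median log2 fold change of the 36 was 0.01 at 2 weeks and -0.10 at 12 weeks, and that of all tested genes was -0.01 and 0.00. With libraries scaled by their totals alone, in place of TMM, 13 of the 36 rose and 3 fell at 2 weeks and 16 rose and 3 fell at 12 weeks, so the small falls below hold relative to TMM scaling.

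None of the 36 genes was called in opposite directions at the 2 durations. Ctss, Ctsc, Ctsk, Ctsd, Hexa and Scarb2 were higher in knockout at both. Neu1, Lamp1, Mcoln1 and Gabarapl1 were lower at both, and 15 genes were called at neither. The remaining 11 were called at 1 duration, Ctsb, Ctsz and Grn as higher at 2 weeks, Cln3 as higher at 12 weeks, and Ctsa, Lgmn, Tpp1, Glb1, Gaa, Lipa and Lamp2 as lower at 12 weeks.

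**Figure D1:**
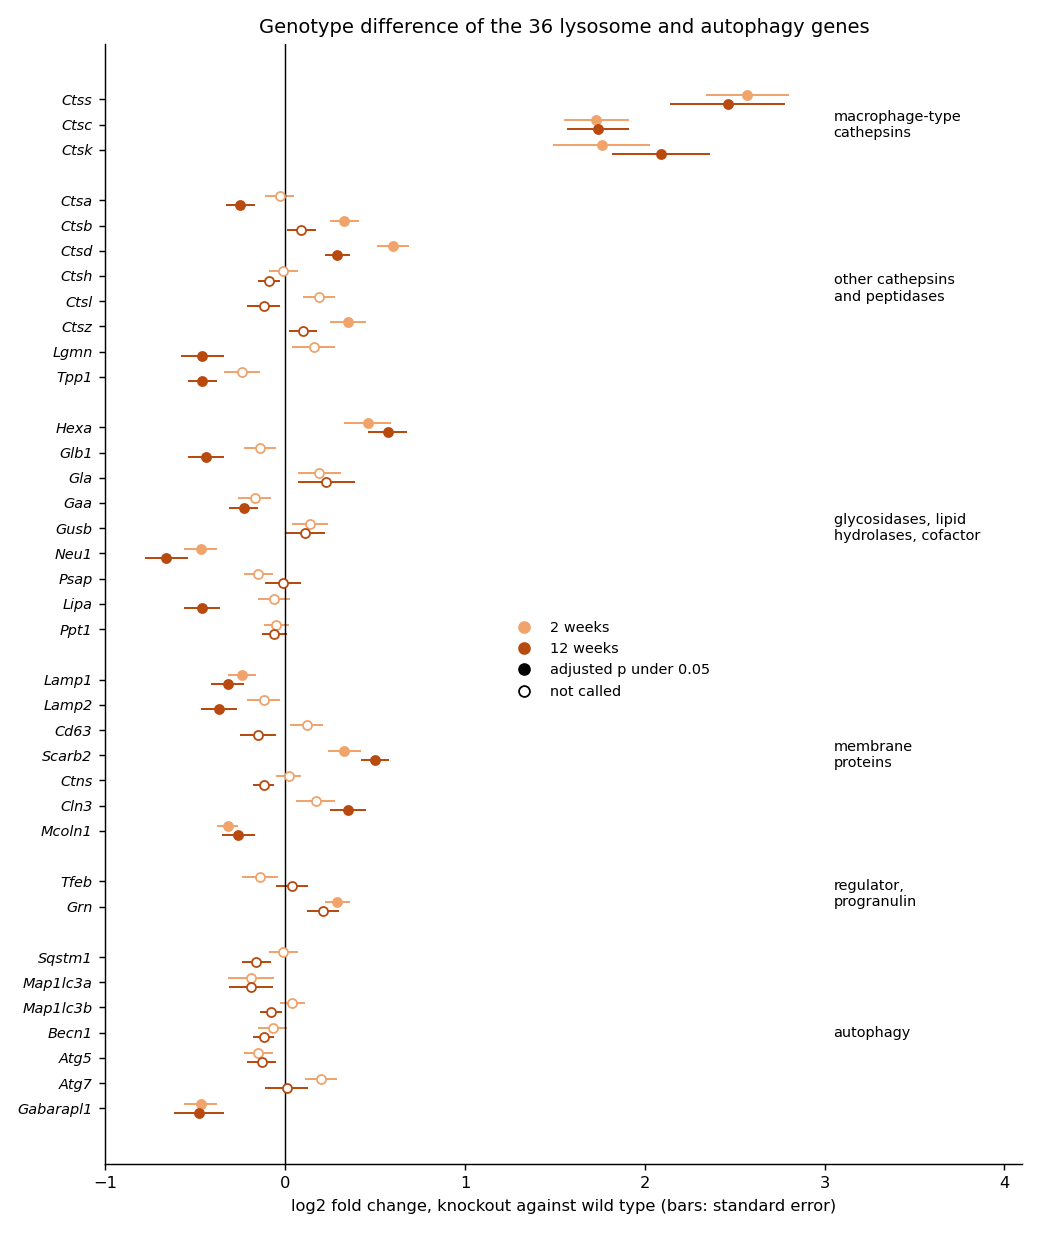
Log2 fold change of knockout against wild type (x axis) for each of the 36 genes, ordered by role, at 2 weeks (light) and 12 weeks (dark); bars are standard errors and filled points passed an adjusted p of 0.05. Ctss, Ctsc and Ctsk lie between 1.73 and 2.57, and all other genes between -0.66 and 0.60.

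Ctss encodes cathepsin S, which antigen-presenting cells use to trim the invariant chain of MHC class II. It ranged from 14.4 to 19.7 CPM (median 16.6) in wild type and from 60.4 to 145 CPM (median 86.7) in knockout at 2 weeks. At 12 weeks it ranged from 13.6 to 49.4 CPM (median 27.0) in wild type and from 109 to 281 CPM (median 126) in knockout. Every knockout library was above every wild type library of its duration. The log2 fold change was 2.57 ± 0.23 (standard error, SE) at 2 weeks, a 5.94-fold difference (edgeR adjusted p = 5.1e-06), and 2.46 ± 0.32 at 12 weeks, a 5.51-fold difference (adjusted p = 0.00017, edgeR). Among the 17286 tested genes, 204 (1.18%) had a larger log2 fold change than Ctss at 2 weeks.

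Ctsc encodes cathepsin C, also called dipeptidyl peptidase I, which activates the serine proteases of immune cell granules. In wild type it lay between 17.7 and 28.9 CPM (median 26.8) at 2 weeks and between 18.9 and 28.0 CPM (median 26.1) at 12 weeks. In knockout it lay between 51.7 and 112 CPM (median 77.5) at 2 weeks and between 59.9 and 118 CPM (median 69.6) at 12 weeks. The wild type and knockout libraries were again fully apart, by log2 fold changes of 1.73 ± 0.18 and 1.74 ± 0.17 (edgeR adjusted p = 1.2e-05 at each duration).

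Ctsk encodes cathepsin K, the collagen-degrading protease of osteoclasts that activated macrophages and fibroblasts also make. It was the least abundant of the 3, with 2.88 to 4.44 CPM (median 3.62) in wild type and 5.89 to 22.9 CPM (median 10.6) in knockout at 2 weeks. At 12 weeks wild type libraries held 4.36 to 9.08 CPM (median 5.65) and knockout libraries 15.1 to 45.2 CPM (median 24.8). The groups did not overlap at either duration, although the lowest knockout library at 2 weeks (5.89 CPM) came close to the highest wild type library (4.44 CPM). The log2 fold changes were 1.76 ± 0.27 (edgeR adjusted p = 0.00016) and 2.09 ± 0.27 (edgeR adjusted p = 9.5e-05).

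**Figure D2:**
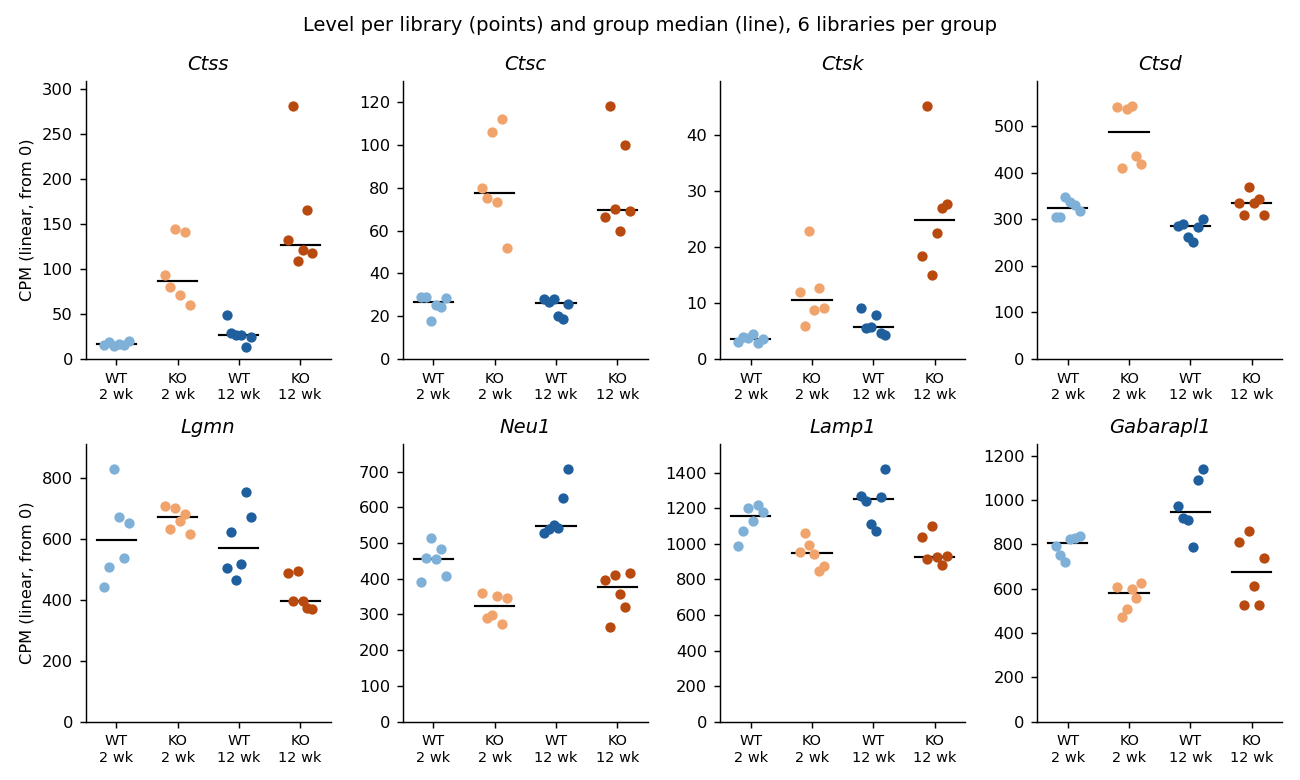
Level in CPM (y axis, linear from 0) of 8 genes in each of the 24 libraries, by genotype and weeks of diet; points are libraries and lines are medians of 6. The knockout points of Ctss, Ctsc, Ctsk and Ctsd lie above all wild type points of the same duration, and those of Neu1 lie below. The libraries of Lgmn overlap at 12 weeks, with medians of 569 CPM in wild type and 395 CPM in knockout.

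Ctsk (chr3:95499256-95509362, mm10, plus strand) and Ctss (chr3:95526786-95556403, plus strand) are neighbours, 17423 bases apart with no protein-coding gene between them. Ctsc is on another chromosome (chr7:88278085-88310888, plus strand). The promoters of Ctss and Ctsc are shown because these were the 2 more abundant of the 3 and both hold the letters GAGGAAGT, a motif of the PU.1 type (PU.1 is a transcription factor of macrophages), here on the opposite strand as ACTTCCTC in capitals. Each runs from 160 bases before to 20 bases after the RefSeq start site (GRCm38.p6, the assembly of mm10), at chr3:95526626-95526805 and chr7:88277925-88278104, both on the plus strand.
Ctss: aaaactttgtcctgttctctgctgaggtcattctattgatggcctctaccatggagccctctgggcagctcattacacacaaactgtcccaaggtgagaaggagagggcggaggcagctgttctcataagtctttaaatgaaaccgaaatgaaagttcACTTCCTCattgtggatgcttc
Ctsc: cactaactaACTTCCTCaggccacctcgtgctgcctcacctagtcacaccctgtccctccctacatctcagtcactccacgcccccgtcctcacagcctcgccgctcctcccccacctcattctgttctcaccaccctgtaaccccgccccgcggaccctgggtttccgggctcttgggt
In windows of 300 bases (250 before to 50 after the start), which RefSeq gave for 32 of the 36 genes, GAGGAAGT on either strand was found for 4 genes, Ctss, Ctsc, Gla and Gusb, or 12.5%. Among all 27025 genes with such a window the share was 3.69%. Ctsk had none of these letters, and Gla and Gusb were called at neither duration, with log2 fold changes of 0.19 and 0.14 at 2 weeks and 0.23 and 0.11 at 12 weeks. A match is a description of letters and not a binding site.

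Macrophage markers rose beside these cathepsins. Of 16 markers, 14 rose and 1 fell (Mertk, a receptor for the uptake of dead cells, log2 fold change -0.44 ± 0.10) at 2 weeks, and 15 rose at 12 weeks. Their median log2 fold change was 2.19 at 2 weeks and 1.95 at 12 weeks, next to 1.76 and 2.09 for the 3 cathepsins. The most abundant 2, Lyz2 (lysozyme) and Csf1r (the receptor for colony stimulating factor 1), rose by log2 fold changes of 3.54 ± 0.36 and 0.50 ± 0.09 at 2 weeks. Summed over the 16 markers, the level was 226 to 286 CPM in wild type and 525 to 1210 CPM in knockout at 2 weeks, and 241 to 476 against 737 to 1490 CPM at 12 weeks. No marker was at 0 in all libraries. In bulk RNA, more cells of a type and more RNA per cell cannot be told apart.

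Set against that sum, the 3 cathepsins did not move alike. Ctss came to 6.57% ± 0.418 (SD, n = 6) of the summed macrophage markers in wild type and 12.2% ± 1.82 in knockout at 2 weeks, and to 8.60% ± 1.76 and 15.5% ± 1.88 at 12 weeks. The libraries did not overlap, with 6.01% to 6.96% against 10.4% to 15.6% at 2 weeks and 5.64% to 10.4% against 14.0% to 18.8% at 12 weeks. Ctsc stood at 9.91% ± 1.29 and 10.5% ± 1.33 at 2 weeks and at 7.86% ± 1.74 and 8.29% ± 0.845 at 12 weeks, with overlapping libraries each time. Ctsk stood at 1.40% ± 0.226 and 1.47% ± 0.398 at 2 weeks, and at 1.91% ± 0.170 and 2.62% ± 0.496 at 12 weeks, also with overlap. The make-up of the sum differed between genotypes, because its markers changed unequally. At 2 weeks the log2 fold change was -0.44 for Mertk, 0.50 for Csf1r and 3.54 for Lyz2. That of Ctss was above the median of the 16 markers (2.57 against 2.19 at 2 weeks, 2.46 against 1.95 at 12 weeks). It was below that of Lyz2 at both durations (3.54 and 3.04). The shares of Ctss therefore hold for this sum and not for each marker. These ratios were formed after the levels were known and carry no test.

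**Figure D3:**
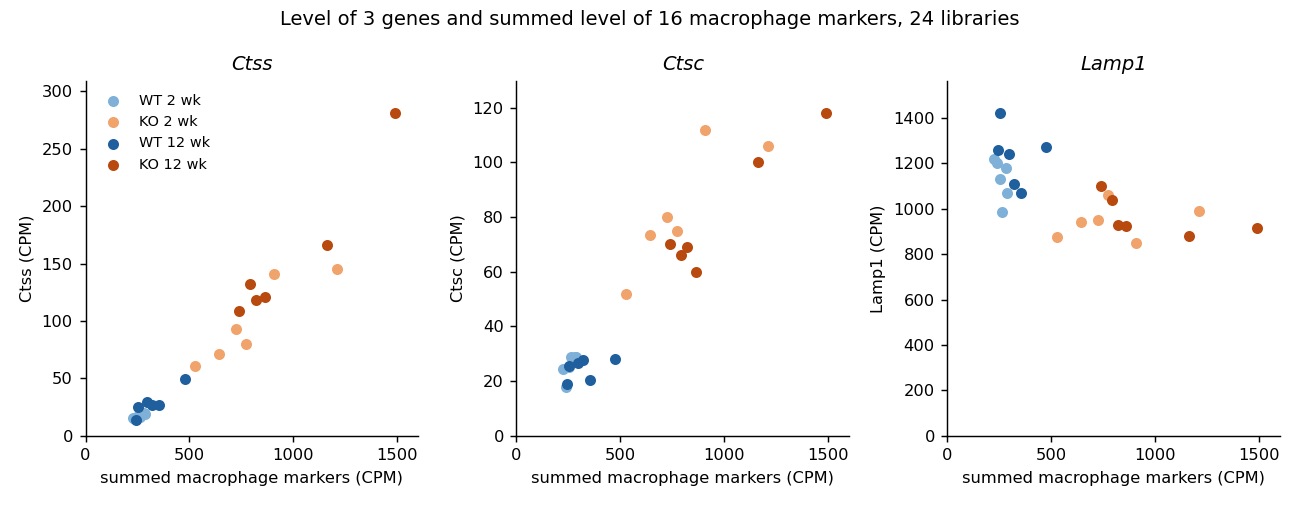
Summed level of 16 macrophage markers (x axis, CPM) and level of Ctss, Ctsc and Lamp1 (y axes, CPM, from 0) in the 24 libraries, coloured by group. The 12 wild type libraries lie at summed marker levels of 226 to 476 CPM with 13.6 to 49.4 CPM of Ctss, the knockout libraries at 525 to 1490 CPM with 60.4 to 281 CPM, and Lamp1 has no such spread.

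Other cells that could carry these cathepsins were counted in the same way. Of 8 dendritic cell markers, 7 rose at each duration, with summed levels of 25.2 to 32.5 CPM in wild type and 48.0 to 68.9 CPM in knockout at 2 weeks and 28.4 to 47.9 and 65.1 to 133 CPM at 12 weeks. Of 6 markers of osteoclasts and fused macrophages, 5 were tested and 2 rose at each duration. The most abundant, Acp5 and Atp6v0d2, stood at -0.16 ± 0.08 and -0.03 ± 0.11 at 2 weeks. Atp6v0d2 fell by -0.33 ± 0.09 at 12 weeks. Both are also counted in the wider pathway lists below, Atp6v0d2 among the subunits used by intercalated cells. They therefore do not stand for osteoclasts or fused macrophages alone. Dcstamp and Mmp9 lay above all wild type libraries of each duration. Their knockout levels at 2 weeks were low, at 0.371 to 1.44 CPM and 1.85 to 5.70 CPM. Fibroblast markers rose in 7 of 8 cases at 2 weeks and in 8 of 8 at 12 weeks, from summed levels of 125 to 182 CPM to 503 to 1380 CPM at 2 weeks. Neutrophil markers, of which 4 of 6 were tested, rose in 4 of 4 cases at each duration, with medians of 1.71 and 1.70. Of 8 tested markers of T and natural killer cells, 7 rose at each duration, with medians of 1.38 and 2.32. Of 6 markers of B and plasma cells, 2 rose at each duration, with medians of 0.44 and 2.23. Summed neutrophil markers were low, at 3.74 to 9.33 CPM in wild type and 11.5 to 25.3 CPM in knockout at 2 weeks. At 12 weeks they were 1.73 to 6.06 and 6.76 to 16.4 CPM. Summed B and plasma cell markers spread widely at 12 weeks, at 18.1 to 109 CPM in wild type and 58.3 to 1280 CPM in knockout. None of these B and plasma cell markers was higher without overlap at that time. The part of each cell type in the rise of Ctss, Ctsc and Ctsk was not tested.

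Knockout replicate 2 at 12 weeks had the highest Ctss (281 CPM), Ctsc (118 CPM), Ctsk (45.2 CPM) and summed macrophage markers (1490 CPM) of all 24 libraries. Without it the 12-week log2 fold changes were 2.21 for Ctss, 1.61 for Ctsc and 1.87 for Ctsk. Wild type replicate 1 at 12 weeks had the highest Ctss (49.4 CPM), Ctsk (9.08 CPM) and summed markers (476 CPM) of the wild type libraries, and without it the values were 2.69, 1.79 and 2.23.

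The other 8 cathepsins and peptidases belong to most cells with lysosomes, and their changes were far smaller. At 2 weeks 3 rose (Ctsd, Ctsb and Ctsz) and none of the 8 fell, while at 12 weeks 1 rose (Ctsd) and 3 fell (Lgmn, Tpp1 and Ctsa). Their median log2 fold change was 0.18 at 2 weeks and -0.10 at 12 weeks. Together they summed to 2280 to 3010 CPM in wild type and 2750 to 3210 CPM in knockout at 2 weeks, and to 2390 to 3060 and 2240 to 2690 CPM at 12 weeks.

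Ctsd encodes cathepsin D, the main aspartic protease of the lysosome. Its level was 305 to 348 CPM (median 324) in wild type and 411 to 543 CPM (median 487) in knockout at 2 weeks. At 12 weeks it was 251 to 301 CPM (median 285) and 309 to 369 CPM (median 335). The knockout libraries were all above the wild type libraries at both durations. The log2 fold change was 0.60 ± 0.09 at 2 weeks (edgeR adjusted p = 7.4e-05) and 0.29 ± 0.07 at 12 weeks (edgeR adjusted p = 0.0057). Of the gene's exon bases, 34.4% are shared with the predicted gene Gm49369 on the same strand, which had 0 counts in all 24 libraries.

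Ctsb, a cysteine protease, and Ctsz, a carboxypeptidase also called cathepsin X, rose at 2 weeks by log2 fold changes of 0.33 ± 0.08 (edgeR adjusted p = 0.0059) and 0.35 ± 0.10 (edgeR adjusted p = 0.014), each with overlapping libraries. At 12 weeks neither was called, at 0.09 ± 0.08 and 0.10 ± 0.08. Ctsh, an aminopeptidase, and Ctsl, an endopeptidase whose loss is known for skin and heart defects, were called at neither duration. Their log2 fold changes were -0.01 ± 0.08 and 0.19 ± 0.09 at 2 weeks and -0.09 ± 0.06 and -0.12 ± 0.09 at 12 weeks.

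Lgmn encodes legumain, an asparagine-specific protease that matures other cathepsins. At 2 weeks it was 443 to 828 CPM (median 595) in wild type and 615 to 707 CPM (median 670) in knockout, and it was not called (log2 fold change 0.16 ± 0.12). At 12 weeks it was 464 to 752 CPM (median 569) in wild type and 368 to 495 CPM (median 395) in knockout. The knockout libraries at 12 weeks were the lowest of the 4 groups, with some overlap with wild type, and the fall was -0.46 ± 0.12 (edgeR adjusted p = 0.0088).

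Tpp1, which removes tripeptides from protein ends, fell at 12 weeks from 155 to 201 CPM in wild type to 119 to 143 CPM in knockout with no overlap, by a log2 fold change of -0.46 ± 0.08 (edgeR adjusted p = 0.00049). Its 2-week value was -0.24 ± 0.10 (edgeR adjusted p = 0.067). Ctsa, the serine carboxypeptidase that also protects other enzymes, fell at 12 weeks by -0.25 ± 0.08 (edgeR adjusted p = 0.019) and stood at -0.03 ± 0.08 at 2 weeks.

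Among the 9 glycosidases, lipid hydrolases and their cofactor, 1 rose and 1 fell at 2 weeks, and 1 rose and 4 fell at 12 weeks. The median log2 fold change was -0.06 at both durations. Hexa, the alpha subunit of beta-hexosaminidase, which degrades gangliosides, was the gene that rose. It was 44.4 to 51.7 CPM (median 48.6) in wild type and 49.5 to 93.0 CPM (median 63.7) in knockout at 2 weeks, and 45.7 to 62.4 CPM (median 49.2) and 61.3 to 96.8 CPM (median 70.3) at 12 weeks. Single libraries overlapped at both durations. The log2 fold changes were 0.46 ± 0.13 (edgeR adjusted p = 0.012) and 0.57 ± 0.11 (edgeR adjusted p = 0.0012).

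Neu1, the lysosomal sialidase, had the largest fall of the 36 at 12 weeks. Wild type libraries held 392 to 514 CPM (median 455) and knockout libraries 274 to 359 CPM (median 322) at 2 weeks. At 12 weeks they held 529 to 707 CPM (median 547) and 264 to 416 CPM (median 377). The genotypes did not overlap at either duration. The log2 fold change was -0.47 ± 0.09 at 2 weeks (edgeR adjusted p = 0.00068) and -0.66 ± 0.12 at 12 weeks (edgeR adjusted p = 0.00052).

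Neu1, the beta-galactosidase Glb1 and cathepsin A are known to assemble into 1 complex in the lysosome, and all 3 fell at 12 weeks; they are set together here after their values were seen. Glb1 was 130 to 198 CPM in wild type and 91.9 to 128 CPM in knockout at 12 weeks, without overlap (log2 fold change -0.44 ± 0.10, edgeR adjusted p = 0.0039), and -0.14 ± 0.09 at 2 weeks. Lipa, the acid lipase that frees cholesterol from lipoprotein cargo, was 207 to 313 CPM in wild type and 162 to 191 CPM in knockout at 12 weeks, also without overlap (-0.46 ± 0.10, edgeR adjusted p = 0.0021). Its value at 2 weeks was -0.06 ± 0.09.

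Gaa, the acid alpha-glucosidase that degrades glycogen, fell at 12 weeks by -0.23 ± 0.08 with an edgeR adjusted p of 0.040, next to -0.17 ± 0.09 at 2 weeks. That 12-week call was lost in 7 of the 12 fits that left out a library. Gla (alpha-galactosidase A), Gusb (beta-glucuronidase), Ppt1 (which removes fatty acids from proteins) and Psap (the precursor of the saposins, cofactors of lipid degradation) were called at neither duration. Their log2 fold changes ran from -0.15 to 0.19 at 2 weeks and from -0.06 to 0.23 at 12 weeks. Gla was the least abundant of the 4, at 4.83 to 8.86 CPM over the 24 libraries.

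Of the 7 lysosomal membrane proteins, 1 rose and 2 fell at 2 weeks, and 2 rose and 3 fell at 12 weeks, with medians of 0.02 and -0.15. Lamp1 and Lamp2 are the glycoproteins that line the inner face of the lysosomal membrane. Lamp1 was 986 to 1220 CPM (median 1160) in wild type and 849 to 1060 CPM (median 947) in knockout at 2 weeks, and 1070 to 1420 CPM (median 1250) and 879 to 1100 CPM (median 927) at 12 weeks. The libraries overlapped at both durations. Its falls of -0.24 ± 0.08 and -0.32 ± 0.09 had edgeR adjusted p = 0.040 and 0.012. The 2-week call was lost in 8 of the 12 fits that left out a library.

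Lamp2 fell at 12 weeks from 846 to 1130 CPM (median 910) in wild type to 618 to 802 CPM (median 705) in knockout. No library overlapped, and the log2 fold change was -0.37 ± 0.10 (edgeR adjusted p = 0.0077), next to -0.12 ± 0.09 at 2 weeks. Mcoln1, the calcium channel TRPML1, was 62.2 to 72.4 CPM (median 66.1) in wild type and 45.7 to 57.2 CPM (median 53.1) in knockout at 2 weeks, without overlap. It fell by -0.32 ± 0.06 (edgeR adjusted p = 0.00075) at 2 weeks and by -0.26 ± 0.09 (edgeR adjusted p = 0.026) at 12 weeks. The latter call was lost without any 1 of 4 libraries, knockout replicates 1, 3 and 5 or wild type replicate 5.

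Scarb2, the membrane protein LIMP-2 that carries glucocerebrosidase to lysosomes, moved the other way. It was 48.6 to 62.2 CPM (median 57.9) in wild type and 59.2 to 81.9 CPM (median 67.3) in knockout at 2 weeks, and 55.8 to 67.5 CPM (median 58.6) and 73.9 to 94.8 CPM (median 80.5) at 12 weeks. The genotypes overlapped at 2 weeks and not at 12 weeks. The rises were 0.33 ± 0.09 (edgeR adjusted p = 0.0092) and 0.50 ± 0.08 (edgeR adjusted p = 0.00018).

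Cln3, the membrane protein lost in juvenile Batten disease, rose at 12 weeks from 15.2 to 19.7 CPM to 19.9 to 25.8 CPM without overlap (0.35 ± 0.10, edgeR adjusted p = 0.0093), next to 0.17 ± 0.11 at 2 weeks. Cd63, a tetraspanin of late endosomes, and Ctns, the cystine exporter whose loss causes cystinosis with proximal tubule failure, were called at neither duration, at 0.12 ± 0.09 and 0.02 ± 0.07 at 2 weeks and -0.15 ± 0.10 and -0.12 ± 0.06 at 12 weeks.

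Tfeb, the transcription factor that switches on lysosome and autophagy genes, was itself called at neither duration. It ranged from 25.9 to 32.3 CPM in wild type and 19.2 to 27.2 CPM in knockout at 2 weeks, and from 21.9 to 30.6 and 23.4 to 29.5 CPM at 12 weeks, with log2 fold changes of -0.14 ± 0.10 and 0.04 ± 0.09. RNA level does not show its activity, which depends on whether the protein is in the nucleus. Grn, the precursor of granulins, a secreted and lysosomal protein of macrophages and many other cells, rose at 2 weeks from 116 to 139 CPM (median 131) to 139 to 164 CPM (median 157). The groups met only at 139 CPM as rounded and did not overlap. The log2 fold change was 0.29 ± 0.07 at 2 weeks (edgeR adjusted p = 0.0046) and 0.21 ± 0.09 at 12 weeks, which was not called (edgeR adjusted p = 0.079).

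The letters that TFEB is known to bind are shown for 4 genes that moved differently, with the match in capitals. Lamp1 (chr8:13159001-13159180, plus strand) fell and holds CACGTG 4 times, the most of the 32 genes searched. Mcoln1 (chr8:3500359-3500538, plus strand) fell and holds the 8-base core TCACGTGA. Ctsd (chr7:142387808-142387987, minus strand) rose and holds the same core. Cln3 (chr7:126583217-126583396, minus strand) rose at 12 weeks and holds the 10-base CLEAR element (the shared motif of lysosomal gene promoters), which is TCACGTGA with G before and C after it. The windows again run from 160 bases before to 20 after the start and are written along the gene's strand; capitals mark the motif named for each gene only.
Lamp1: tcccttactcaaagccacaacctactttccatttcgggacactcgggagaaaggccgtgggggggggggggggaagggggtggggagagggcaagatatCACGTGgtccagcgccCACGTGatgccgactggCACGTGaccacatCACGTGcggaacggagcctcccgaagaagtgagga
Mcoln1: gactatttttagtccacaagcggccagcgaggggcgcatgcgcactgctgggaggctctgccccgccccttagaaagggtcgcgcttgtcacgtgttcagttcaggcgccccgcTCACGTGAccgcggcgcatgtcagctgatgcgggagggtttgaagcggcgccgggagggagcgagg
Ctsd: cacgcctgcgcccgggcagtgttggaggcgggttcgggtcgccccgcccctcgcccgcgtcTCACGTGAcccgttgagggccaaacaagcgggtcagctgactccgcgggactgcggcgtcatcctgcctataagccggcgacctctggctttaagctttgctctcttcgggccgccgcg
Cln3: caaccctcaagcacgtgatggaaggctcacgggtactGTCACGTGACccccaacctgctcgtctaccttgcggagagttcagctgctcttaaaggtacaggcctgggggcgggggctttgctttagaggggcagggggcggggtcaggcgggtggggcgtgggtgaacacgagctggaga
In the 300-base windows of the 32 genes, CACGTG, which reads the same on both strands, was found for 12 (37.5%), against 8.09% of 27025 genes. The core TCACGTGA, which contains CACGTG, was found for 5 (15.6%; Cln3, Ctsa, Ctsd, Gla and Mcoln1), against 1.12%, and the 10-base element, which contains both, for 1 (Cln3), against 0.37%. None of the 3 was found for Ctss, Ctsc or Ctsk.

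Genes with and without these letters did not move as blocks. Of the 12 genes with CACGTG, 1 rose and 2 fell at 2 weeks and 2 rose and 6 fell at 12 weeks, with medians of 0.06 and -0.18. Of the 20 without it, 7 rose and 2 fell at 2 weeks and 5 rose and 5 fell at 12 weeks, with medians of 0.03 and -0.03. Ctss, Ctsc and Ctsk are among these 20 and among their rises at both durations. The 5 genes with TCACGTGA held 1 that rose and 1 that fell at 2 weeks and 2 of each at 12 weeks. Becn1, Ctsb, Ctsh and Map1lc3a were not searched.

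Of the 7 autophagy genes, Gabarapl1 was the only one called, as lower at both durations, and the medians were -0.07 and -0.13. Gabarapl1 belongs to the ATG8 family, whose members are linked to lipid on the growing autophagosome. Its level was 721 to 839 CPM (median 807) in wild type and 473 to 624 CPM (median 578) in knockout at 2 weeks, and 786 to 1140 CPM (median 945) and 525 to 861 CPM (median 677) at 12 weeks. The genotypes were fully apart at 2 weeks and overlapped at 12 weeks. The log2 fold change was -0.47 ± 0.09 (edgeR adjusted p = 0.00035) and -0.48 ± 0.14 (edgeR adjusted p = 0.012). Of its exon bases, 28.3% overlap 1700101I11Rik on the opposite strand, which had 19 to 121 counts where Gabarapl1 had at least 6524.

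The other ATG8 genes, Map1lc3a and Map1lc3b, stood at -0.19 ± 0.13 and 0.04 ± 0.07 at 2 weeks and -0.19 ± 0.12 and -0.08 ± 0.06 at 12 weeks. Sqstm1, the cargo receptor p62, whose protein builds up when autophagy stalls, was 448 to 581 CPM in wild type and 480 to 547 CPM in knockout at 2 weeks, and 435 to 558 and 394 to 486 CPM at 12 weeks. Its log2 fold changes were -0.01 ± 0.08 and -0.16 ± 0.08. Becn1 (a subunit of the lipid kinase that starts autophagosomes) and Atg5 and Atg7 (of the conjugation system) ran from -0.15 to 0.20 at 2 weeks and from -0.13 to 0.01 at 12 weeks. RNA levels do not measure the flow of material through autophagy.

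Compared per length of merged exons (CPM per 1000 bases, RPKM), general lysosome genes were the abundant ones. Psap, Lamp1 and Gabarapl1 held the 3 highest places in wild type at both durations, with Psap at 575 ± 52.9 RPKM (SD, n = 6) at 2 weeks. Gla was last at both durations in both genotypes. Ctss rose from place 25 of 36 in wild type (12.5 RPKM) to place 13 in knockout (72.5 RPKM) at 2 weeks, and from place 22 (21.0 RPKM) to place 8 (114 RPKM) at 12 weeks. Ctsc went from place 32 to 26 and from 32 to 28, and Ctsk from 35 to 31 and from 33 to 25.

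In summed CPM, Ctss, Ctsc and Ctsk were a small part of the 36 genes in every group. They made up 0.461% ± 0.0809 (SD, n = 6) of the sum in wild type and 1.96% ± 0.617 in knockout at 2 weeks, and 0.568% ± 0.171 and 2.87% ± 1.13 at 12 weeks. The other 33 genes summed to 8900 to 10800 CPM in wild type and 9180 to 9900 CPM in knockout at 2 weeks, and to 9600 to 12100 and 8450 to 9830 CPM at 12 weeks. Their summed levels overlapped between genotypes at both durations, while those of the 3 cathepsins did not (35.8 to 52.1 against 121 to 274 CPM, and 37.2 to 86.5 against 194 to 444 CPM).

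For the 33 general genes alone, 6 rose and 4 fell at 2 weeks, against 18.2% and 13.4% of all tested genes. At 12 weeks 4 rose and 11 fell, against 20.7% and 17.7%. The medians of the 33 were -0.01 and -0.12. How many of the 33 were called higher or lower, and the sign of their median, depended on how libraries were scaled. With library totals in place of TMM, 10 rose and 3 fell at 2 weeks and 13 rose and 3 fell at 12 weeks. The 3 were Neu1 at -0.43, Lipa at -0.22 and Tpp1 at -0.22, while Lgmn, Ctsa, Glb1, Gaa, Lamp1, Lamp2, Mcoln1 and Gabarapl1 were then not called as lower at 12 weeks, nor Lamp1 at 2 weeks. Over all tested genes that scaling moved the median by 0.14 at 2 weeks and 0.23 at 12 weeks, and the higher share of called genes from 57.5% to 80.2% and from 53.9% to 86.7%. Relative to the median of all tested genes, the 33 stood at 0.00 at 2 weeks and -0.12 at 12 weeks under both scalings, and Ctss, Ctsc and Ctsk at 1.77 to 1.78 and 2.09 to 2.11.

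Markers of kidney cell types were counted beside the general lysosome genes. Of 14 proximal tubule markers, 11 fell at 2 weeks and 13 at 12 weeks, with medians of -0.53 and -0.60; Lrp2 is 1 of the 14. Their summed level was 33500 to 42900 CPM in wild type and 25800 to 40600 CPM in knockout at 2 weeks, and 41400 to 49600 against 21900 to 34300 CPM at 12 weeks. With library totals alone 9 and 10 of the 14 fell. Of 5 markers of intercalated cells, which acidify the urine, 5 fell at 2 weeks and 3 at 12 weeks. Of 4 markers of the distal convoluted tubule, 3 fell at 2 weeks and 2 at 12 weeks, and of 5 principal cell markers 1 and 3 fell. Of 4 markers of the thick ascending limb, 2 fell at 2 weeks and 1 rose at 12 weeks, and of 6 endothelial markers 2 fell at each duration. Podocyte markers went the other way at 12 weeks, with 1 of 5 lower at 2 weeks and 3 of 5 higher at 12 weeks. The part of tubule cell content in the falls of Neu1, Tpp1, Glb1, Lipa, Lamp2, Lamp1, Mcoln1, Lgmn and Gabarapl1 was not tested.

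A wider set of 147 genes of the same pathways, in 7 lists chosen by function and none of them among the 36, shifted down more than up. At 2 weeks 10 rose and 33 fell (median -0.11), against 18.2% and 13.4% of all tested genes. At 12 weeks 11 rose and 66 fell (median -0.19), against 20.7% and 17.7%. With library totals alone the split was 20 higher and 13 lower at 2 weeks and 43 higher and 18 lower at 12 weeks. Without any 1 library, 36 to 55 of the 147 were called at 2 weeks and 63 to 84 at 12 weeks.

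**Figure D4:**
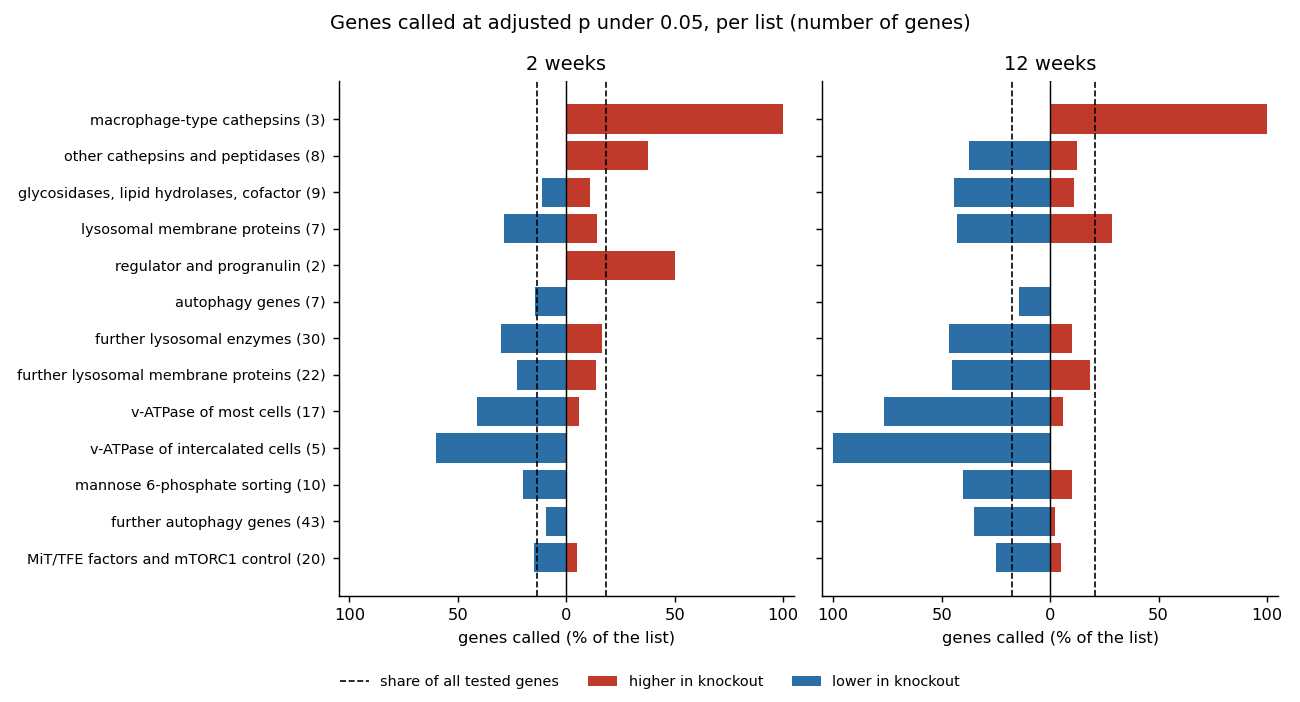
Share of each gene list called at an adjusted p under 0.05 (x axis, percent of the list; right of 0 higher in knockout, left of 0 lower) at 2 weeks and 12 weeks, with the number of genes of each list in brackets; dashed lines are the shares among all tested genes. The macrophage-type cathepsins stand at 3 of 3 higher, and the subunits of the vacuolar ATPase of most cells at 7 and 13 of 17 lower.

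The vacuolar ATPase, the proton pump that acidifies lysosomes, accounted for many of these falls. Of 17 subunits used by most cells, 7 fell and 1 rose at 2 weeks and 13 fell and 1 rose at 12 weeks. Atp6v1e1, Atp6v1d and Atp6v0d1 fell at 12 weeks by -0.42 ± 0.08, -0.33 ± 0.06 and -0.32 ± 0.06 (edgeR adjusted p = 0.00069, 0.00097 and 0.0012), each without overlap. With library totals alone these stood at -0.19, -0.10 and -0.08, and the latter 2 were not called. The subunit that rose was Tcirg1, the a3 subunit known from osteoclasts and macrophages, by 0.57 ± 0.13 at 2 weeks (edgeR adjusted p = 0.0022). It was 22.2 to 43.4 CPM in wild type and 44.5 to 94.4 CPM in knockout at 12 weeks. Of 5 subunits used by intercalated cells, 3 fell at 2 weeks and 5 at 12 weeks, among them Atp6v1c2 by -0.83 ± 0.08 and -1.03 ± 0.11 (edgeR adjusted p = 5.4e-07 and 8.2e-06).

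Of 22 further membrane proteins, 3 rose and 5 fell at 2 weeks and 4 rose and 10 fell at 12 weeks. The 3 that rose at 2 weeks are known from blood-derived cells, namely Laptm5, Cd68 and Slc15a3, by 1.89 ± 0.13, 1.79 ± 0.15 and 1.44 ± 0.18 (edgeR adjusted p = 1.5e-08, 7.1e-08 and 7.4e-06). Cd68 is also 1 of the 16 macrophage markers. Slc36a1, an amino acid exporter, fell at 12 weeks by -0.62 ± 0.09.

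Of 30 further enzymes, 5 rose and 9 fell at 2 weeks and 3 rose and 14 fell at 12 weeks. Pla2g15, the lysosomal phospholipase A2 that is abundant in alveolar macrophages, rose by 0.91 ± 0.14 and 0.99 ± 0.14 (edgeR adjusted p = 6.8e-05 and 7.4e-05) without overlap. Arsb, which removes sulfate from dermatan sulfate, fell by -0.82 ± 0.13 and -0.91 ± 0.12 (edgeR adjusted p = 0.00019 and 4.9e-05). Galns, the sulfatase of keratan sulfate, fell by -0.78 ± 0.10 at 12 weeks.

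Of 10 genes that sort enzymes to lysosomes by mannose 6-phosphate, 2 fell at 2 weeks, and 1 rose and 4 fell at 12 weeks. Gga2, an adaptor of the sorting receptors, fell by -0.53 ± 0.06 and -0.51 ± 0.09, and M6pr, the small receptor itself, by -0.34 ± 0.07 at 12 weeks. Sort1, a sorting receptor that does not use the sugar, rose by 0.37 ± 0.08 at 12 weeks. Of 43 further autophagy genes, 4 fell at 2 weeks, and 1 rose and 15 fell at 12 weeks, among them the mitophagy receptor Bnip3 by -0.38 ± 0.07 and -0.47 ± 0.11. Of 20 genes of the MiT/TFE factors and the control of mTORC1, the kinase complex that holds TFEB in the cytoplasm, 1 rose and 3 fell at 2 weeks and 1 rose and 5 fell at 12 weeks. Tfe3, a relative of Tfeb, was the one that rose, by 0.27 ± 0.08 and 0.31 ± 0.07, and Mtor fell by -0.67 ± 0.09 at 12 weeks.

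Whether the genotype difference itself changed with duration was tested over all 24 libraries. None of the 36 genes was called by edgeR, against 30 genes (0.174%) of all tested, or 10.6% at an unadjusted p under 0.05. At that unadjusted threshold 8 of the 36 passed, and DESeq2 called none of the 36. The lowest adjusted p of the 36 was 0.16, for Lgmn, whose 12-week difference was lower than its 2-week difference by -0.63 ± 0.18. The values for Ctss, Ctsc and Ctsk were -0.10 ± 0.39, 0.02 ± 0.26 and 0.33 ± 0.40. So calls made at 1 duration only are not shown to differ between durations.

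The comparison of 12 with 2 weeks within a genotype cannot be told apart from whatever else differed between the 2 sets of libraries, whose deposited names follow 1 pattern at 2 weeks and another at 12 weeks. In all 2-week libraries 7 genes were at 0 that averaged at least 10 CPM at 12 weeks, and 1 gene was so in reverse. Within wild type 5 of the 36 were higher and 5 lower at 12 weeks (30.4% of all tested genes were called, 15.8% higher and 14.7% lower), and within knockout 4 were higher and 11 lower (33.8%, 17.7% higher and 16.1% lower). Becn1 was higher at 12 weeks in both genotypes, by 0.46 ± 0.07 and 0.42 ± 0.07, and Atg7 lower, by -0.43 ± 0.11 and -0.62 ± 0.10. In knockout Ctsk was higher by 1.12 ± 0.27 (edgeR adjusted p = 0.0022), Ctsd lower by -0.53 ± 0.08 (edgeR adjusted p = 8.2e-06) and Lgmn lower by -0.67 ± 0.13 (edgeR adjusted p = 0.00020).

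Whether counting used strand is unknown from the sources used here, so reads in stretches where genes overlap cannot be assigned for certain. A low count of an overlapping gene, as given above for Ctsd and Gabarapl1, does not show how many reads were left out. For 13 of the 36 genes, exons are shared with a gene of the opposite strand, 9 of them over more than 5% of their bases. The largest such shares are 43.9% in Becn1, 28.3% in Gabarapl1 and 26.8% in Ctsl. None of Ctss, Ctsc, Ctsk, Neu1, Lgmn, Tpp1, Lipa, Lamp2, Mcoln1 or Scarb2 has such an overlap.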

How the data were processed

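RNA of 24 kidney samples was sequenced. Reads were trimmed with fastp, aligned with STAR 2.5 and counted per gene with HTSeq 0.6.1 on mm10, per the submitters' processing notes, which give names without roles or options. The deposited files hold raw whole-number counts per Ensembl gene, not normalized by the authors. RNA was prepared with a Maxwell RSC simplyRNA kit and libraries with a NEBNext Ultra kit, per the labels' protocols. Of 54532 gene identifiers, 54495 matched GENCODE M21, which gave symbols, positions and exon lengths; the other 37 held at most 0.00528% of a library's counts.

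The main test was the quasi-likelihood F test (robust) of edgeR 4.0.16, under R 4.3.3, after TMM scaling. Genes had to pass filterByExpr by group, with a count minimum of 10 and a total of at least 15. It is two-sided, p-values were adjusted by Benjamini-Hochberg over 17286 genes, and genes were called at an adjusted p under 0.05. Each genotype comparison used the 12 libraries of its duration; the change with duration and the 12-against-2-week comparisons used all 24. SE is the log2 fold change over the square root of F. The steps were run on simulated counts in which few genes differed, as many up as down. Such counts cannot test the choice of scaling for these data, where many genes were called. Alternatives were DESeq2 1.42.0, RLE, upper-quartile and no scaling, other filters, a replicate block, all 24 libraries in 1 fit, and each library left out. Applying them to the pathway and marker lists was chosen after seeing the data.

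The members and lists were chosen with earlier results of these data known. All members are named; per-library ranges are given for Ctss, Ctsc, Ctsk and the called member of each role with the largest rise and fall, and for others where useful. From each pathway list up to 3 called genes with the smallest adjusted p were eligible, and from each marker list the 2 most abundant. No pair of libraries was near-identical (lowest chi-square per degree of freedom within a group 6.12). Promoter windows are RefSeq's (GRCm38.p6). Figures used Python 3.11.15 and matplotlib 3.10.9.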

Additional observations from a re-analysis of the deposited data

Results flagged for a closer look

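In 9 of 144 combinations of gene and group, 1 library lay far from the other 5: its gap to the nearest library, divided by the range of the group, was above 0.625. Chance alone gives about 1 in 20 such cases.

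Ctss was 281 CPM in knockout replicate 2 at 12 weeks, where the other 5 libraries lay between 109 and 166 CPM. That library also had the highest summed macrophage markers, at 1490 CPM. Hexa was 62.4 CPM in wild type replicate 1 at 12 weeks, against 45.7 to 51.8 CPM in the others of its group, and that library had the highest summed macrophage markers of the wild type libraries, at 476 CPM.

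Knockout replicate 2 at 2 weeks stood apart for both Ctsl and Lamp2. Ctsl was 469 CPM against 544 to 588 CPM, and Lamp2 was 956 CPM against 682 to 760 CPM. The same library had 584 CPM of Lrp2, the most of the 12 knockout libraries, and 5.89 CPM of Ctsk, the least.

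Lamp2 was 1130 CPM in wild type replicate 6 at 12 weeks, against 846 to 943 CPM. Ctsa was 242 CPM in wild type replicate 3 at 2 weeks, against 187 to 203 CPM. Gaa was 65.6 CPM in knockout replicate 5 at 2 weeks, against 84.4 to 88.8 CPM. In knockout at 12 weeks, Ctns was 20.8 CPM in replicate 4 against at least 23.4 CPM in the others, and Atg7 was 21.1 CPM in replicate 3 against 14.8 to 16.1 CPM.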

How the results depend on the processing

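The number of the 36 genes called at 2 weeks was 13 and ranged from 12 to 16 over the alternatives and from 12 to 15 with 1 library left out. At 12 weeks it was 18, with 17 to 19 and 16 to 18. The change of the genotype difference with duration gave 0 calls in every setting run. For 12 against 2 weeks the counts were 10 in wild type (9 to 14, and 8 to 12) and 15 in knockout (13 to 17, and 11 to 16). All these counts stayed within 1.5 times of the value reported, but a count does not show which genes were called or in which direction. With library totals alone, 12 of the 13 calls at 2 weeks were kept in the same direction. At 12 weeks 10 of the 18 were kept. No library left out moved a fold change of the 36 by more than 1.24 times in the 5 comparisons. Ctss, Ctsc and Ctsk kept their rise and their call in every setting run. Over the settings that kept all libraries, their medians were 1.69 to 1.91 at 2 weeks and 2.04 to 2.34 at 12 weeks.

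Library totals alone gave the only reversals, all at 12 weeks: Ctsh at 0.15 (adjusted p = 0.027), Psap at 0.23 (0.047), Map1lc3b at 0.15 (0.022) and Gaa at 0.01 (0.91, no longer called). Under that scaling 16 of the 36 were called at 2 weeks (13 higher, 3 lower) and 19 at 12 weeks (16 higher, 3 lower).

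The replicate numbers gave no sign of a pairing of the libraries. Correlations of residuals between equal numbers ran from -0.10 to 0.17, with 1 of 12 over 0.1. Between unequal numbers they ran from -0.35 to 0.39 at 12 weeks. Low correlations do not exclude a pairing. With the replicate block 12 genes were called at 2 weeks (9 higher, 3 lower), 17 at 12 weeks (7 higher, 10 lower) and 0 for the change with duration. The block took away the call of Lamp1 at 2 weeks and of Gaa at 12 weeks. No paired analysis was possible for 12 against 2 weeks because the numbers lie within a duration.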

Other observations

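Further genes of the same pathways that were called, among the 3 with the smallest adjusted p of their list, are given here by value. In mitophagy and autophagosome formation, Pink1, the kinase that marks damaged mitochondria, fell by -0.49 ± 0.11 at 2 weeks without overlap of the genotypes. Wipi2, which binds the lipid of forming autophagosomes, fell by -0.25 ± 0.07 and -0.26 ± 0.07, and Atg3, the enzyme that joins ATG8 proteins to lipid, by -0.29 ± 0.07 at 12 weeks. Among genes that sense nutrients at the lysosome, Flcn (folliculin) and its partner Fnip2 fell by -0.26 ± 0.08 and -0.50 ± 0.10 at 2 weeks, and Lamtor4 by -0.28 ± 0.07 at 12 weeks. Galc, which degrades galactosylceramide, fell by -0.39 ± 0.09 at 2 weeks. The proton pump subunits Atp6v0c and Atp6v1g1 fell by -0.35 ± 0.07 and -0.31 ± 0.08 at 2 weeks.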
